A study of Homo sapiens with 9 samples.

Results

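This is a description of 6 mucin genes (MUC1, MUC4, MUC13, MUC16, MUC5AC and MUC5B) among the 58735 genes counted in a plasmid transfection experiment on A549 cells, a lung adenocarcinoma line. The 6 genes were picked by symbol, with earlier results of the same libraries known, among them the lower MUC16 values in the LINC00996 libraries than in the control libraries. Their values in every comparison that uses the LINC00996 libraries are therefore given as a description, with log2 fold changes and standard errors (SE) but with no test. Their values in AP001189.3 against control were tested, but that comparison uses the control libraries of the one known when the genes were picked, so the p for MUC16 is not independent of the choice. All 6 genes passed the filter on low counts in each of the 3 comparisons.

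Cells had received a plasmid with the reagent jetPRIME, and poly-T selected mRNA was sequenced as paired-end reads of 150 bases. The study asked what overexpression of either of 2 long noncoding RNAs does to gene expression in these cells. The control group (3 libraries) carried a control plasmid, which the treatment labels call PC3.1, PC3.2 and PC3.3 in turn while the paper names PC3.1 alone, so whether these were 1 plasmid or 3 is not known. The LINC00996 group (3 libraries) and the AP001189.3 group (3 libraries) overexpressed the RNA that names them, and transfection of A549 cells is common to all 3 groups. The paper names VectorBuilder as the maker of both overexpression plasmids and gives no maker for PC3.1. Whether the control plasmid had the same backbone is not known. If it did not, backbone and overexpressed RNA cannot be told apart in the comparisons with control. Library totals were 17062469, 16114345 and 17390680 counts in control replicates 1, 2 and 3, 18125447, 15272450 and 18047062 in the LINC00996 replicates, and 17383842, 15600778 and 16784136 in the AP001189.3 replicates.

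The group labels were checked against the overexpressed RNAs. LINC00996 was counted 9, 8 and 4 times in control, 5239, 4373 and 5952 times in LINC00996 and 8, 7 and 8 times in AP001189.3 libraries. AP001189.3 was counted 0, 2 and 1 times in control libraries, 0 times in each LINC00996 library and 1660, 1931 and 2378 in the AP001189.3 libraries. Each RNA was thus high in the 3 libraries named for it and near or at 0 in the other 6.

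Mucins are very large glycoproteins whose long repeated stretches of serine and threonine carry dense O-linked sugar chains. Transmembrane mucins stand on the cell surface, where they form a barrier and take part in signalling and adhesion, and their outer part can be shed. The gel-forming mucins MUC5AC and MUC5B are secreted, link into polymers and give airway mucus its gel, and both transmembrane and gel-forming mucins are often altered in lung adenocarcinoma.

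1 library stood apart from its group. LINC00996 replicate 1 differed from replicates 2 and 3 of its group by a chi-square per gene of 20.1 and 29.7, where 1 is the value that counting error alone gives, and replicates 2 and 3 differed from each other by 3.13. Pairs of control libraries gave 3.21, 6.70 and 4.33, and pairs of AP001189.3 libraries gave 4.04, 4.49 and 2.21. Libraries also differed in how a gene's ratio to the mean library followed the GC content of its longest transcript, over 14623 genes. The Spearman correlation with GC content was -0.01, -0.27 and -0.31 in the control libraries, 0.46, -0.26 and -0.46 in the LINC00996 libraries, and 0.39, 0.25 and 0.23 in the AP001189.3 libraries, across genes, which are not independent replicates. The longest transcript of MUC1 was 71.2% GC, against 64.5% for MUC5B, 60.3% for MUC5AC, 57.5% for MUC4, 50.3% for MUC16 and 44.7% for MUC13. The same ratio was also compared with gene length, over 14628 genes. Its Spearman correlation with gene length was 0.14, 0.21 and 0.14 in the control libraries. It was -0.26, -0.06 and 0.04 in the LINC00996 libraries, and -0.05, -0.05 and -0.03 in the AP001189.3 libraries. Every control value was above every other value. MUC16 had the greatest gene length of the mucin genes, at 43830 bases. The cause was not tested, and values with a gene length offset are given below. The labels give no batch.

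Markers of the labelled cell type were present. All 6 epithelial markers were above the floor of 3 counts in at least 1 library. KRT8 led in CPM (counts scaled to library size and by the trimmed mean of M values, TMM), with a mean of 4489. CPM are not scaled to gene length, and per length KRT18 had the higher mean in each group. Leading genes of the lists below are likewise those with the highest CPM. The summed level of the epithelial markers was 8510.4, 8441 and 8439 CPM in the control libraries, 11159.6, 8401 and 8344 in the LINC00996 libraries and 9109, 9274 and 9242 in the AP001189.3 libraries. LINC00996 replicate 1 had the highest sum, which KRT8, KRT18 and KRT7 dominate. CDH1 was lower in the LINC00996 libraries without overlap. It had 171 ± 9.86 CPM (SD, n = 3), against 317 ± 5.51 in control and 291 ± 14.1 in AP001189.3 libraries. KRT19 was lower too (225 ± 38.8 CPM against 296 ± 3.38 and 288 ± 10.4). Both passed in LINC00996 against control (edgeR adjusted p 2.92e-05 and 0.0256). EPCAM, KRT8 and KRT18 were higher than in control without overlap, but did not pass (edgeR adjusted p 0.135, 0.0958 and 0.438). KRT8 had 4924 ± 1034 CPM in LINC00996 and 3986 ± 106 in control libraries. KRT7 overlapped. All 6 NRF2 targets known to be high in A549 were above the floor. AKR1C2 led them in CPM, at 2538, while per length AKR1B10 had the higher mean in each group. Their sums were 6677, 6659 and 6761 CPM in control, 7604, 8065 and 8041 in LINC00996 and 6349, 6528 and 6418 in AP001189.3 libraries. Of 8 goblet cell markers 7 were above the floor, MUC5B leading with 1224 CPM and TFF3 at or under it, but that list holds MUC5AC and MUC5B themselves. Of 8 alveolar type 2 markers 7 were above the floor, LAMP3 leading and SFTPA1 at or under it, with sums of 320.0, 322 and 316 CPM in the control libraries, 158, 154 and 166 in the LINC00996 libraries and 359, 352 and 348 in the AP001189.3 libraries. The lower LINC00996 sums came from LAMP3 (235 ± 4.71 CPM in control, 65.4 ± 14.6 in LINC00996 and 265 ± 5.63 in AP001189.3 libraries), since ABCA3 (82.0 ± 3.06, 91.2 ± 9.0 and 84.7 ± 6.93 CPM) and NAPSA (1.44 ± 0.342, 2.27 ± 0.616 and 2.20 ± 0.324 CPM) were not lower there. The part of CDH1, KRT19 and LAMP3, singled out after their values were seen, in the mucin values was not tested.

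Markers of other cell types were scarce. The club cell markers SCGB1A1, SCGB3A1 and SCGB3A2 were at or under the floor, and the list summed to at most 2.07 CPM in a library. The 6 ciliated cell markers summed to 30.2, 29.5 and 33.9 CPM in control, 41.9, 37.9 and 31.2 in LINC00996 and 29.6, 25.8 and 24.4 in AP001189.3 libraries. Of these, TPPP3 fell in AP001189.3 against control (log2 fold change -0.35, edgeR adjusted p 0.0312). DNAH5 was higher in LINC00996 than in AP001189.3 libraries (0.64, edgeR adjusted p 0.0389). The 5 basal and squamous cell markers, with KRT5 and DSG3 at or under the floor, summed to between 38.3 and 49.7 CPM. These sums are small beside the epithelial one. The 5 mesothelial markers summed to between 14.3 and 22.6 CPM, led by UPK3B at 9.37 CPM. Within these lists CALB2 (mesothelial) was higher in LINC00996 than in control libraries without overlap (3.12 ± 0.512 against 1.20 ± 0.294 CPM, SD, n = 3), and KRT14 (basal) was lower (0.111 ± 0.141 against 1.01 ± 0.193 CPM). Of the other mesothelial markers, MSLN, WT1 and UPK3B overlapped (log2 fold changes -0.31, -0.26 and 0.32), and LRRN4 had the lower mean in LINC00996 libraries (0.0970 against 0.223 CPM). Of the other basal markers, TP63 and KRT6A overlapped. The ciliated markers DNAH5 and CAPS were higher in LINC00996 than in control libraries without overlap, while TPPP3 and RSPH1 overlapped. Of these 4 tested genes 0 passed an edgeR adjusted p of 0.05 in that comparison. Fibroblast markers summed to 23.2, 26.0 and 23.1 CPM in control, 18.3, 17.8 and 16.2 in LINC00996 and 21.6, 24.7 and 21.1 in AP001189.3 libraries, with COL1A2 and DCN at or under the floor. Here COL1A1 was lower in LINC00996 than in control libraries (13.6 ± 1.61 against 20.9 ± 1.48 CPM, SD, n = 3). COL3A1 had the higher mean in LINC00996 libraries (3.50 ± 0.573 against 2.44 ± 0.314 CPM), but did not pass an edgeR adjusted p of 0.05. Endothelial markers summed to 11.6, 12.4 and 13 CPM in control, 5.26, 6.43 and 6.48 in LINC00996 and 9.58, 7.29 and 8.80 in AP001189.3 libraries, with VWF, KDR and TIE1 at or under the floor. The endothelial sums had the group order of MUC16. PECAM1, the gene of the list with the highest CPM, had means of 8.11, 3.03 and 4.64 CPM in control, LINC00996 and AP001189.3 libraries. CDH5, the other gene above the floor, had means of 4.12, 2.95 and 3.85 CPM, and its AP001189.3 and control libraries overlapped. The part of these markers in the mucin values was not tested, and the single genes whose group values are given here were picked after their values were seen.

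The 6 mucin genes were ranked by level per length, with the FPKM values the authors deposited (fragments scaled to gene length and library size). The gel-forming mucins were the most abundant of the 6 in control cells, with MUC5B at 68.6 FPKM and MUC5AC at 58.7 FPKM on average. The transmembrane mucins followed, MUC13 at 30.8, MUC1 at 11.2, MUC16 at 4.46 and MUC4 at 0.0342 FPKM. MUC5B and MUC5AC were neighbours within their spread, since MUC5B was 76.1, 71.4 and 58.3 FPKM and MUC5AC 56.7, 59.8 and 59.5 FPKM in control replicates 1, 2 and 3, and MUC5AC was the higher in replicate 3. The other neighbours in that order did not overlap in any group, and the order was the same in all libraries except control replicate 3. By rank among the 16567 protein-coding genes with counts in the control group, MUC5B was number 443, MUC5AC 542, MUC13 1192, MUC1 3567, MUC16 7065 and MUC4 14950. In the LINC00996 group, with 16572 such genes, MUC16 was number 11490 and MUC1 6917, and in the AP001189.3 group, with 16672, they were number 8889 and 3411.

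**Figure D1:**
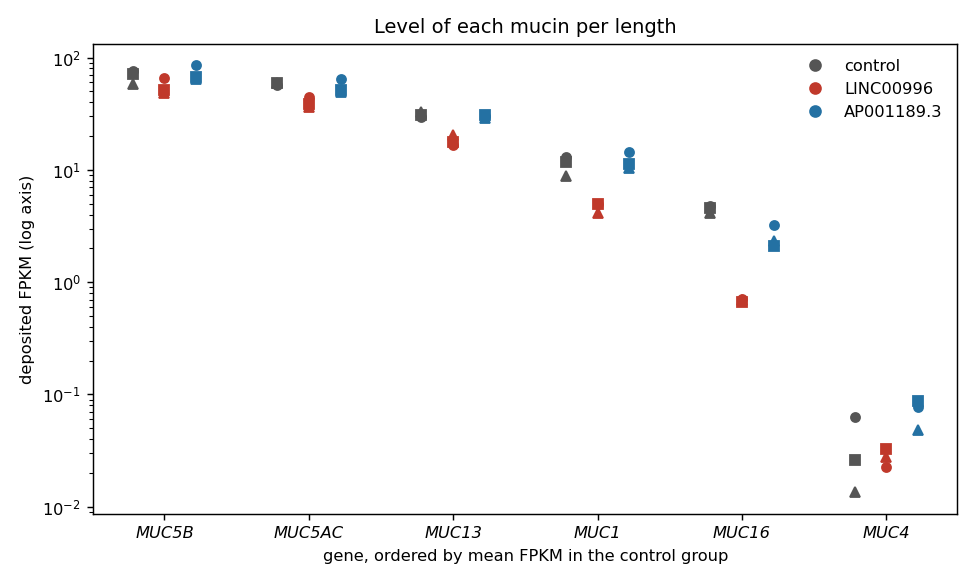
Deposited FPKM of each mucin gene on a log axis, 1 point per library, coloured by group, with circles, squares and triangles for replicates 1, 2 and 3. Group means ran from 0.0276 FPKM (MUC4, LINC00996 group) to 71.9 FPKM (MUC5B, AP001189.3 group), and MUC16 had the widest gap between groups, from 0.690 FPKM in the LINC00996 group to 4.46 FPKM in the control group.

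MUC1 (ENSG00000185499, GRCh38 chr1:155185824-155192916, minus strand) is a transmembrane mucin of most epithelia whose inner tail takes part in signalling. It had 60.9, 55.8 and 42.3 CPM in control replicates 1, 2 and 3, 23.7, 23.9 and 19.5 CPM in the LINC00996 replicates and 68.6, 53.2 and 48.8 CPM in the AP001189.3 replicates. All 3 LINC00996 libraries were below the other 6, while control and AP001189.3 libraries overlapped. The means were 53.0 ± 9.63 CPM (SD, n = 3) in control, 22.4 ± 2.47 in LINC00996 and 56.8 ± 10.4 in AP001189.3 libraries. In bulk RNA, fewer cells that express a gene and less RNA per cell cannot be told apart, here and for every gene below.

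The 100 bases before the MUC1 start at base 155192915 (RefSeq, GRCh38.p14, minus strand, chr1:155192916-155193015) are shown because MUC1, MUC13 and MUC16 had their low values in the same libraries. Capitals mark TATAAA and GGGCGG, the latter present as 1 separate copy and as 3 that overlap each other, and 1 base of the window lies in an exon of GENCODE 29.
MUC1: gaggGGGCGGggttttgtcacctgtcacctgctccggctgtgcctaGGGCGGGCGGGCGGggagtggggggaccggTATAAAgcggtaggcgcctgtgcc

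The motifs searched on both strands in that window were the TATA box (TATAAA), the SP1 site (GGGCGG), the AP-1 site (TGA and TCA around any 1 base), the STAT site (TTC and GAA around any 3 bases), the interferon response element (GAAA repeated after any 2 bases) and the kappa B site (GGG, a purine, any 2 bases, 2 pyrimidines, CC). Of 35116 RefSeq promoter windows of 100 bases, 4.99% held the TATA box, 31.3% the SP1 site, 2.75% the AP-1 site, 2.31% the STAT site, 1.20% the interferon response element and 4.11% the kappa B site. A match describes the letters and is no evidence of binding. RefSeq promoter entries existed for 4 of the 6 genes, MUC1, MUC4, MUC13 and MUC16. The window of MUC4, which is not shown, held GGGCGG on the other strand and a STAT site.

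The repeat that defines a mucin is shown for MUC1, where the unit had 19 exact copies, against 7 in MUC4 and 2 in MUC13. The length of the unit was the commonest spacing between recurring stretches of 15 bases in the coding sequence. In MUC16, MUC5AC and MUC5B that spacing was 468, 1119 and 1671 bases, and no unit of that length recurred exactly. In the transcript ENST00000611571.4 (GENCODE 29) a unit of 60 bases recurred. Its first copy lies in exon 2, at chr1:155191821-155191880 on the minus strand. The unit is printed without capitals since no motif was searched in it.
MUC1 repeat: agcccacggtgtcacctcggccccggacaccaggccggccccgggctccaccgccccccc

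Repeats bear on counting, since a read that lies wholly inside them has more than 1 place. Of all 150-base windows of the longest transcript, 24.3% in MUC1, 12.4% in MUC5B, 10.5% in MUC4, 5.16% in MUC5AC and 0.0870% in MUC16 occurred more than once in that transcript, and none in MUC13. MUC5B was the 1 gene with windows found in another gene (1.33%, in MUC5B-AS1). How the authors counted reads with more than 1 place is not given in the sources used here. MUC1 also overlaps AL713999.1, and MUC5B overlaps MUC5B-AS1 and MIR6744, all of which had 0 counts in every library.

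MUC4 (ENSG00000145113, chr3:195746765-195812277, minus strand) is a transmembrane mucin that partners the receptor ERBB2. It had 23, 9 and 5 counts in control replicates 1, 2 and 3, 9, 11 and 11 in the LINC00996 replicates and 28, 29 and 17 in the AP001189.3 replicates. On the CPM scale these were 1.35, 0.560 and 0.287, then 0.493, 0.700 and 0.594, then 1.66, 1.89 and 1.03. Control replicate 1 sat apart from its group and overlapped the AP001189.3 libraries. The LINC00996 libraries were below all AP001189.3 libraries and inside the control range. Means were 0.733 ± 0.552 CPM (SD, n = 3) in control, 0.596 ± 0.104 in LINC00996 and 1.52 ± 0.446 in AP001189.3 libraries, so counting error limits every statement on MUC4.

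MUC13 (ENSG00000173702, chr3:124905442-124953819, minus strand) is a small transmembrane mucin of gut and airway epithelium. It had 103, 108 and 116 CPM in the control replicates, 59.2, 62.8 and 71.9 CPM in the LINC00996 replicates and 107, 109 and 101 CPM in the AP001189.3 replicates. The LINC00996 libraries were below the other 6, and control and AP001189.3 libraries overlapped. The means were 109 ± 6.56 CPM (SD, n = 3) in control, 64.6 ± 6.52 in LINC00996 and 106 ± 4.03 in AP001189.3 libraries.

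The 100 bases before the RefSeq start at base 124934751 (GRCh38.p14, minus strand, chr3:124934752-124934851) hold none of the 6 motifs, so no letter is in capitals. The window lies inside the MUC13 gene of GENCODE 29, outside its exons.
MUC13: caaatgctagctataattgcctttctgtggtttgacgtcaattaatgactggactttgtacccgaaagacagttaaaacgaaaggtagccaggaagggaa

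MUC16 (ENSG00000181143, chr19:8848844-8981342, minus strand) is a giant transmembrane mucin, the carrier of the CA125 antigen, that binds mesothelin and galectins. Its longest transcript had 84 exons and a coding length of 43521 bases, of which exon 3 alone spanned 21693 bases. It had 208, 200.3 and 183 CPM in the control replicates, 31.8, 29.2 and 30.8 CPM in the LINC00996 replicates and 144, 93.1 and 102 CPM in the AP001189.3 replicates. The 3 groups did not overlap at all: every LINC00996 library was below every AP001189.3 library, and every AP001189.3 library below every control library. The means were 197 ± 12.9 CPM (SD, n = 3) in control, 30.6 ± 1.29 in LINC00996 and 113 ± 26.9 in AP001189.3 libraries. AP001189.3 replicate 1 was the highest of its group, and the counts behind the lowest value, in LINC00996 replicate 2, were 459.

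The 100 bases before the upstream RefSeq start at base 9065751 (GRCh38.p14, minus strand, chr19:9065752-9065851) hold 1 GGGCGG, which lies on the other strand and so reads CCGCCC in capitals. This start is beyond the end of the gene model that was counted, which ends at base 8981342, and a second RefSeq start at base 9010409 held none of the 6 motifs in its window.
MUC16: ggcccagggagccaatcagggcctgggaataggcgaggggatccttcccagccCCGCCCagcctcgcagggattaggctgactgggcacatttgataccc

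MUC5AC (ENSG00000215182, chr11:1157953-1201138, plus strand) is the gel-forming mucin of airway surface goblet cells, and exon 31 of its longest transcript spanned 10371 bases. It had 994, 1053 and 1048 CPM in the control replicates, 783, 681 and 635 CPM in the LINC00996 replicates and 1146, 907 and 872 CPM in the AP001189.3 replicates. The LINC00996 libraries were below the other 6, and AP001189.3 libraries lay on both sides of the control libraries. Means were 1032 ± 32.5 CPM (SD, n = 3) in control, 699.6 ± 75.8 in LINC00996 and 975 ± 149 in AP001189.3 libraries.

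MUC5B (ENSG00000117983, chr11:1223066-1262172, plus strand) is the gel-forming mucin of airway glands and small airways, and exon 31 of its longest transcript spanned 10893 bases. It had 1422, 1338 and 1094 CPM in the control replicates, 1255, 960.0 and 906 CPM in the LINC00996 replicates and 1604, 1246 and 1192 CPM in the AP001189.3 replicates. LINC00996 replicate 1 was above control replicate 3 and both other AP001189.3 values than the highest, so MUC5B overlapped between all 3 groups. Means were 1285 ± 170.2 CPM (SD, n = 3) in control, 1040.1 ± 188 in LINC00996 and 1347 ± 224 in AP001189.3 libraries.

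**Figure D2:**
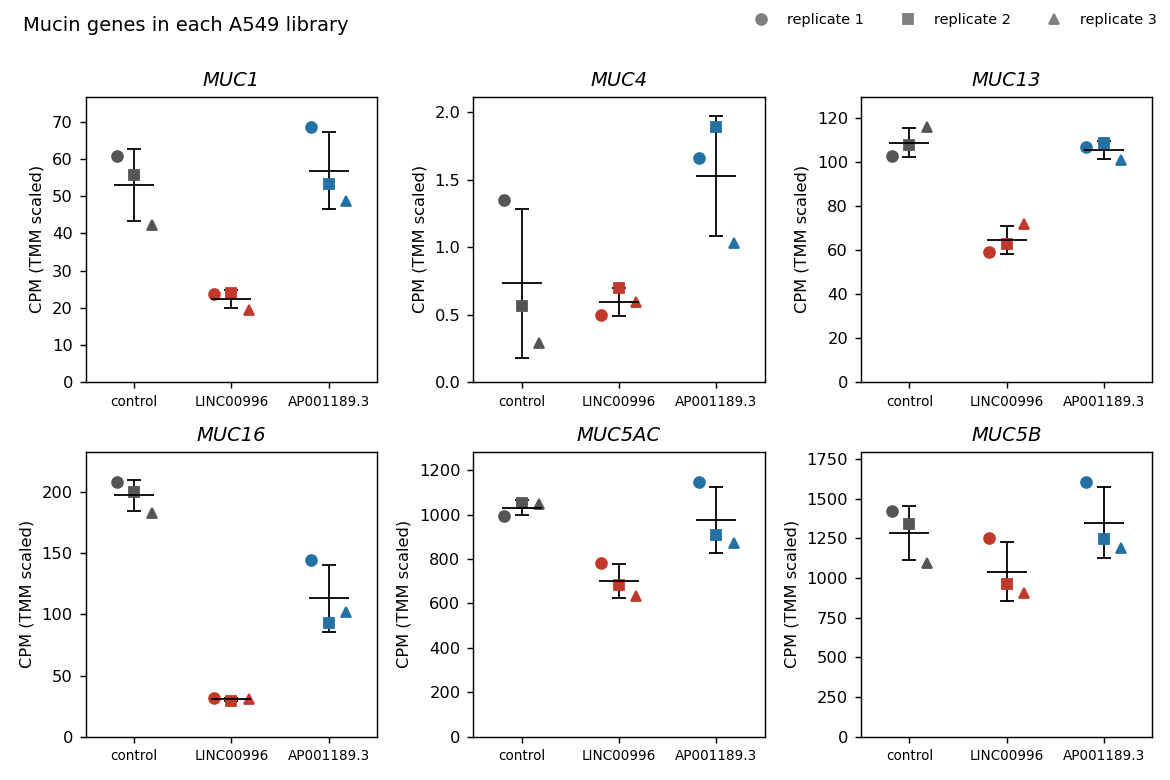
TMM-scaled CPM of the 6 mucin genes, 1 panel per gene with an axis from 0, 1 point per library, and a line and bar for the mean and 1 SD of each group of 3 libraries. MUC16 separated into 3 levels with means of 197, 113 and 30.6 CPM, while MUC5B overlapped between all groups.

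The comparison of LINC00996 with control asked what the first RNA's overexpression does. The log2 fold change in CPM was -2.69 (SE 0.10) for MUC16, -1.25 (SE 0.15) for MUC1, -0.75 (SE 0.10) for MUC13 and -0.31 (SE 0.53) for MUC4. For the gel-forming mucins it was -0.56 (SE 0.09) for MUC5AC and -0.31 (SE 0.13) for MUC5B, or -0.15 for MUC5B with the gene length offset. The MUC16 fold was 0.155, against 0.676 for MUC5AC. MUC4 had no settled direction, since its log2 fold change was 0.48 without control replicate 1. 4 of the 6 genes (MUC1, MUC13, MUC16 and MUC5AC) were lower in LINC00996 libraries without overlap, and 20.5% of the 16097 tested genes were too, while 20% were higher without overlap; nothing is read from that count, because this contrast was known when the genes were picked. Across all tested genes the median log2 fold change was 0.01 and the median size 0.26. Of those genes 3588 passed an adjusted p of 0.05 (22.3%), 1722 higher (10.7%) and 1866 lower (11.6%), in the quasi-likelihood test of edgeR (p adjusted after Benjamini and Hochberg). That number was 5481 without LINC00996 replicate 1 and 2094, 1925 and 2162 without control replicate 1, 2 or 3. Adjusted p-values measure only the spread between these libraries, which may be technical.

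The comparison of AP001189.3 with control, which uses the same 3 control libraries, was tested for the 6 genes. In the quasi-likelihood test of edgeR, adjusted after Benjamini and Hochberg, 0 of the 6 passed, 2 (MUC16 and MUC4) had an unadjusted p under 0.05, and DESeq2 called 1 (MUC16). Of all 16023 genes tested, 3180 passed (19.8%), 1819 higher (11.4%) and 1361 lower (8.49%), and the median log2 fold change of all was -0.0013. That number was 1974 without control replicate 2 and 1914 without AP001189.3 replicate 2. MUC16 was the 1 member whose groups did not overlap, lower in 3 of 3 AP001189.3 libraries, as were 16.7% of all tested genes, with 18.5% higher. Its log2 fold change was -0.80 (SE 0.19, 95% interval -1.31 to -0.29, edgeR adjusted p 0.0544), which missed the threshold. The call turned on the tool and on single libraries: the adjusted p was 0.00118 in DESeq2 and 0.108 without a filter on low counts, the lowest and highest over 10 other settings, of which 6 passed. It was 1.36e-10 without AP001189.3 replicate 1 (log2 fold change -1.01) and 0.0306 without AP001189.3 replicate 2 (-0.68), but 0.145 without AP001189.3 replicate 3 (-0.73) and 0.135, 0.142 and 0.127 without control replicate 1, 2 or 3.

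MUC4 had a log2 fold change of 1.04 (SE 0.43, 95% interval 0.15 to 1.93, edgeR adjusted p 0.0935) in AP001189.3 against control. Without control replicate 1 it was 1.84 with an adjusted p of 0.00770. For MUC1 the value was 0.10 (95% interval -0.41 to 0.62, adjusted p 0.782), for MUC13 -0.04 (-0.16 to 0.08, adjusted p 0.715) and for MUC5B 0.07 (-0.39 to 0.52, adjusted p 0.836). These 3 intervals contain 0, and that of MUC13 is the narrowest. For MUC5AC it was -0.08 (95% interval -0.31 to 0.14, adjusted p 0.630), and -0.21 with an adjusted p of 0.00292 without AP001189.3 replicate 1. The signs of MUC1 and MUC5B turned negative with a GC content offset (-0.22 and -0.16), an alternative chosen after the data were seen, without control replicate 3 (-0.04 for both) and without AP001189.3 replicate 1 (-0.05 and -0.07). With the GC content offset MUC13 was at 0.0019, and the sign of MUC5AC turned positive with a gene length offset (0.01), so no direction is given for these genes.

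The comparison of LINC00996 with AP001189.3 set the overexpressing groups against each other, again with no test for the 6 genes. The log2 fold change was -1.89 (SE 0.15) for MUC16, -1.36 (SE 0.14) for MUC1, -1.35 (SE 0.36) for MUC4 and -0.72 (SE 0.10) for MUC13. It was -0.49 (SE 0.11) for MUC5AC and -0.38 (SE 0.13) for MUC5B, or -0.24 for MUC5B without AP001189.3 replicate 1 and -0.19 with the GC content offset. 5 of the 6, all except MUC5B, were lower in LINC00996 libraries without overlap, as were 19.6% of the 16095 genes tested, with 19.8% higher, and nothing is read from that count. Of all tested genes 3452 passed (21.4%), 1510 higher (9.38%) and 1942 lower (12.1%), by edgeR's quasi-likelihood test. That number was 6828 without LINC00996 replicate 1, 2125 without LINC00996 replicate 2, and 1840, 1957 and 1933 without AP001189.3 replicate 1, 2 or 3. Whether the genes differ among themselves in their fold change was not tested.

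**Figure D3:**
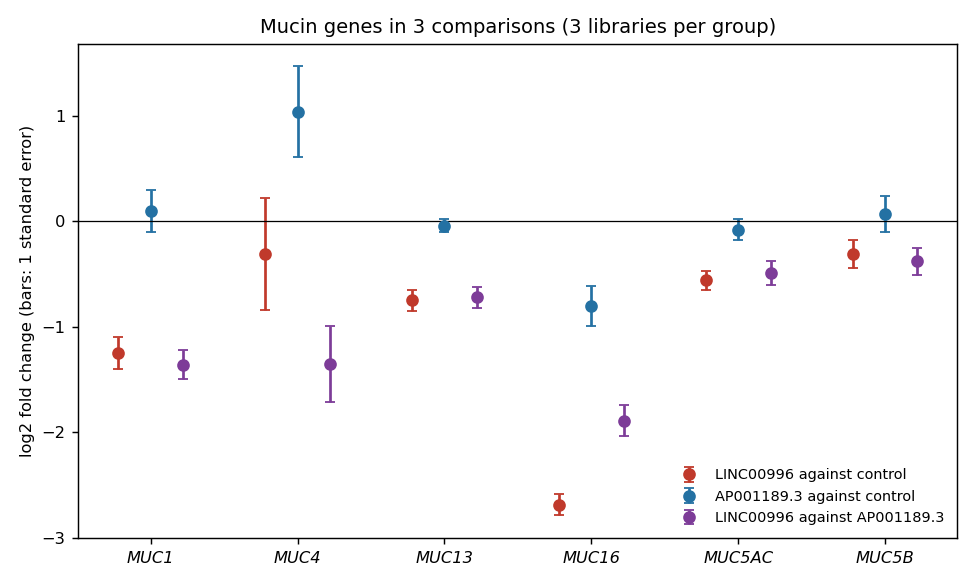
Log2 fold change of each mucin gene in the 3 comparisons, with bars of 1 SE from fits to 3 libraries per group. MUC16 lay lowest in each comparison, at -2.69, -0.80 and -1.89, and MUC4 had the widest bars, with an SE of up to 0.53.

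The make-up of the mucin counts shifted with these values. The 6 genes together took 0.267 ± 0.0163% of a library's counts (SD, n = 3) in control, 0.189 ± 0.0242% in LINC00996 and 0.255 ± 0.0381% in AP001189.3 libraries. MUC16 made up 54.8 ± 1.10% of the counts of the 4 transmembrane genes in control, 25.9 ± 1.46% in LINC00996 and 40.4 ± 4.25% in AP001189.3 libraries (SD, n = 3), a share that follows gene length as well as abundance. Per length, MUC1 stood at 2.49 ± 0.300 times MUC16 in FPKM in control, 6.80 ± 0.860 times in LINC00996 and 4.73 ± 0.504 times in AP001189.3 libraries (SD, n = 3). MUC5AC and MUC5B held 86.6 ± 0.266%, 93.5 ± 1.03% and 89.3 ± 0.241% of the mucin counts in the same groups.

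Other mucin genes were not used to pick the 6 and were tested in every comparison in which they passed the filter on low counts. Their lists, like the others, were chosen with earlier results of these data known, so their counts beside the share of all tested genes are a description. In LINC00996 against control 2 of 4 other transmembrane mucins (MUC17 and MUC3A) and 1 of 3 other secreted mucins (MUC2) fell, beside 11.6% of all tested genes, with median log2 fold changes of -0.59 and 0.13, and in AP001189.3 against control MUC2 fell, beside 8.49% of all tested genes, with medians of -0.23 and 0.14. MUC2, the gel-forming mucin of the intestine, had 13.7, 12.1 and 12.2 CPM in the control replicates, 3.89, 2.99 and 2.81 CPM in the LINC00996 replicates and 10.1, 9.76 and 7.30 CPM in the AP001189.3 replicates. Its 3 groups did not overlap, with the LINC00996 libraries lowest and the AP001189.3 libraries between. MUC2 fell in LINC00996 against control (log2 fold change -1.97, SE 0.17, edgeR adjusted p 1.49e-05) and in LINC00996 against AP001189.3 (-1.49, SE 0.19, adjusted p 2.58e-04). It fell less in AP001189.3 against control (-0.49, SE 0.13, adjusted p 0.0101), a call that was lost in 1 fit of all 9 libraries (adjusted p 0.103), with both FPKM settings (0.192 and 0.191) and without AP001189.3 replicate 3 (-0.35, adjusted p 0.0971). MUC2 lies 47442 bases from MUC5AC on chromosome 11, in the gene cluster that holds both gel-forming members.

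MUC17, a transmembrane mucin, was counted 24, 19 and 20 times in control, 2, 1 and 5 times in LINC00996 and 11, 10 and 7 times in AP001189.3 libraries. The groups did not overlap at these low counts. It fell in LINC00996 against control (log2 fold change -2.98, SE 0.50, edgeR adjusted p 0.00140, and -3.72 without LINC00996 replicate 3), missed the threshold in AP001189.3 against control (-1.11, SE 0.40, adjusted p 0.0510) and did not pass the filter on low counts in LINC00996 against AP001189.3. With library size alone as the scale, the adjusted p in AP001189.3 against control was 0.0443.

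MUC3A had 8.29 ± 1.21 CPM (SD, n = 3) in control, 5.76 ± 0.640 in LINC00996 and 6.76 ± 0.345 in AP001189.3 libraries. It fell narrowly in LINC00996 against control (log2 fold change -0.53, SE 0.17, edgeR adjusted p 0.0461). That call was lost without control replicate 1 (adjusted p 0.158), control replicate 2 (0.178), LINC00996 replicate 1 (0.0561) or LINC00996 replicate 2 (0.111) and in 6 of 10 other settings, DESeq2 among them (0.0772), over a range of 0.0162 to 0.235. MUC12 missed the threshold in that comparison (-0.52, adjusted p 0.117), but passed with an adjusted p of 0.0386 without LINC00996 replicate 1 (-0.62). MUC20, MUC6 and OVGP1 were detected at 31 counts or fewer per library and did not pass in any comparison. MUC21, MUC22 and MUC19 had 2 counts or fewer in every library and MUC7 and MUC15 had 0, which allows up to 3 counts per library, so a difference was not detectable at this depth. Such floors cover counting error only. MUC3B was not analysed here, as the count table has no gene of that symbol.

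Enzymes of the GALNT family start O-glycan chains by adding the first sugar. Of 14 tested, 4 rose (GALNT10, GALNT11, GALNT6 and GALNT1) and 3 fell (GALNT12, GALNT18 and GALNT4) in LINC00996 against control, with a median log2 fold change of 0.17. Over all tested genes 10.7% rose and 11.6% fell, with a median of 0.01. GALNT10 had 179 ± 8.31 CPM (SD, n = 3) in control, 287 ± 10 in LINC00996 and 175 ± 3.69 in AP001189.3 libraries. It rose in 3 of 3 LINC00996 libraries (log2 fold change 0.68, SE 0.09, edgeR adjusted p 2.20e-04), as did GALNT11 (0.56, SE 0.11, adjusted p 0.00369), while GALNT12 fell (-0.66, SE 0.11, adjusted p 0.00151). Without control replicate 2 the counts were 2 higher and 1 lower, and without control replicate 3 only 1 was lower. In AP001189.3 against control, where 11.4% of all tested genes rose and 8.49% fell, GALNT2 rose (0.19, SE 0.05, adjusted p 0.00795) and GALNT4 fell (-0.67, SE 0.20, adjusted p 0.0199), with a list median of -0.07. The GALNT2 call was lost without control replicate 2 (adjusted p 0.0506) or AP001189.3 replicate 2 (0.061), and with a GC content offset (0.238). The GALNT4 call was lost without control replicate 2 (0.0553), control replicate 3 (0.105) or AP001189.3 replicate 3 (0.132) and in DESeq2 (0.058).

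Of 16 tested enzymes that extend and cap the chains, 7 fell in LINC00996 against control (ST3GAL4, B4GALT5, FUT4, GCNT3, GCNT4, ST3GAL1 and ST6GALNAC2) and 9 did not pass, beside 11.6% of all tested genes that fell, with a list median log2 fold change of -0.33. Leaving out 1 library at a time gave 5 to 9 genes that fell, and 1 that rose without LINC00996 replicate 1. ST3GAL4, a sialyltransferase, had 91.3 ± 7.46 CPM (SD, n = 3) in control, 42.5 ± 5.78 in LINC00996 and 78.6 ± 5.94 in AP001189.3 libraries and fell in 3 of 3 LINC00996 libraries (log2 fold change -1.11, SE 0.12, edgeR adjusted p 6.24e-05). The galactosyltransferase B4GALT5 (-0.60, SE 0.08, adjusted p 3.03e-04) and the fucosyltransferase FUT4 (-0.68, SE 0.13, adjusted p 0.00370) also fell. In AP001189.3 against control, with 11.4% of all tested genes higher and 8.49% lower, ST3GAL2 rose (0.25, SE 0.06, adjusted p 0.00433) and ST3GAL4 (-0.21, SE 0.07, adjusted p 0.0234) and B4GALT5 (-0.14, SE 0.05, adjusted p 0.0395) fell, with a list median of -0.02. The ST3GAL4 call was lost without control replicate 3 (0.131), AP001189.3 replicate 2 (0.185) or AP001189.3 replicate 3 (0.070), the B4GALT5 call without any of these or control replicate 2, and all 3 calls in 1 fit of all 9 libraries (0.143, 0.263 and 0.28).

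Among 13 tested genes for mucin folding, packaging and release, the trefoil factor TFF1 fell and the vesicle fusion protein VAMP8 rose in LINC00996 against control, beside 11.6% and 10.7% of all tested genes. TFF1, which is secreted with gastric and airway mucins, had 53.6 ± 4.49 CPM (SD, n = 3) in control, 26.8 ± 2.15 in LINC00996 and 52.1 ± 8.22 in AP001189.3 libraries (log2 fold change -1.0, SE 0.11, edgeR adjusted p 9.75e-05). VAMP8 had 7.06 ± 0.600, 10.4 ± 1.13 and 11.5 ± 1.09 CPM in the same groups (0.55, SE 0.15, adjusted p 0.0226 in LINC00996 and 0.70, SE 0.14, adjusted p 4.99e-04 in AP001189.3 against control). The first of these VAMP8 calls was lost without control replicate 1 (0.058), 2 (0.0733) or 3 (0.1) or LINC00996 replicate 2 (0.0776). The list gave 5 higher and 4 lower without LINC00996 replicate 1. In AP001189.3 against control VAMP8, MARCKS (0.20, SE 0.06, adjusted p 0.0155) and UNC13D rose and AGR2 and UNC13B fell, beside 11.4% and 8.49% of all tested genes. The MARCKS call was lost without control replicate 3 (0.0666) or AP001189.3 replicate 1 (0.108), and the count of genes that fell was below 2 without any 1 of the 6 libraries. The list medians were -0.17 and -0.04.

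Of 12 tested transcription factors of mucous cells, KLF4, GATA6 and XBP1 fell and SPDEF rose in LINC00996 against control, and KLF4, GATA6 and FOXA1 rose in AP001189.3 against control, with list medians of -0.06 and 0.12. Of all tested genes 11.6% fell and 10.7% rose in the first comparison, and 11.4% rose in the second. KLF4 had 71.7 ± 2.91 CPM (SD, n = 3) in control, 34.8 ± 0.684 in LINC00996 and 90.8 ± 2.22 in AP001189.3 libraries. Its log2 fold change was -1.04 (SE 0.10, edgeR adjusted p 2.03e-05) in the first comparison, 0.34 (SE 0.06, adjusted p 1.72e-04) in the second and -1.39 (SE 0.09, adjusted p 2.16e-06) in LINC00996 against AP001189.3. GATA6 had the same signs, at -0.97 (SE 0.12, adjusted p 1.39e-04), 0.31 (SE 0.08, adjusted p 0.00601) and -1.28 (SE 0.11, adjusted p 1.06e-05). The second GATA6 call was lost in 1 fit of all 9 libraries (0.0893) and with a GC content offset (0.0713). XBP1 fell in LINC00996 against control (-0.59, SE 0.09, adjusted p 0.00111), and in AP001189.3 against control it missed the threshold (-0.15, adjusted p 0.0650) except, among others, without control replicate 1 (0.023). The count of 3 that rose in AP001189.3 against control was 2 without any library but control replicate 1. Without LINC00996 replicate 1, 2 factors rose in LINC00996 against control in place of 1.

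Inducers of mucin transcription, namely cytokines, EGFR ligands, receptors and transcription factors known to raise mucin genes in airway cells, were tested gene by gene. Of 21 tested, 15 fell in LINC00996 against control, where 11.6% of all tested genes fell, and 6 did not pass, with a median log2 fold change of -0.52. In AP001189.3 against control 7 rose (IRF1, RELB, STAT6, RELA, NFKB2, IL1B and NFKB1) and 14 did not pass, beside 11.4% of all tested genes that rose, with a median of 0.16. The 7 became 4 without control replicate 2 or AP001189.3 replicate 2, 3 with the FPKM settings and 2 in 1 fit of all 9 libraries, whereas the 15 stayed within 1.5 times in all settings. In LINC00996 against AP001189.3, 16 fell and 5 did not pass, beside 12.1% of all tested genes that fell, with a median of -0.71. Without LINC00996 replicate 1, 1 gene rose in LINC00996 against control and 2 in LINC00996 against AP001189.3, and without control replicate 1, 1 gene fell in AP001189.3 against control. The list, like the others, was chosen with earlier results of these data known, so its counts beside the share of all tested genes are a description. Whether any of these genes acts on the mucins in these cells was not tested.

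The interferon regulatory factor IRF1 had 186 ± 9.51 CPM (SD, n = 3) in control, 93.0 ± 5.80 in LINC00996 and 274 ± 8.53 in AP001189.3 libraries. Its groups did not overlap in either comparison with control, with log2 fold changes of -1.0 (SE 0.09, edgeR adjusted p 2.07e-05) and 0.56 (SE 0.05, adjusted p 2.54e-08). The cytokine IL6 had 15.7 ± 2.67, 3.54 ± 1.25 and 18.8 ± 1.68 CPM and fell in LINC00996 against control (-2.14, SE 0.23, adjusted p 7.14e-05), and in AP001189.3 against control it passed only without control replicate 1 (0.41, adjusted p 0.0149). IL6 had the lowest log2 fold change of the 21 tested inducers in LINC00996 against control. IL1A, a cytokine, fell in LINC00996 against control (-1.58, SE 0.16, adjusted p 3.28e-05) from 27.2 ± 0.587 to 9.11 ± 1.88 CPM, with 25.4 ± 1.28 CPM in AP001189.3 libraries. The NF-kappa B subunit RELB had 85.8 ± 5.74, 63.4 ± 7.11 and 119 ± 3.69 CPM, with log2 fold changes of -0.44 (SE 0.11, adjusted p 0.0130) and 0.47 (SE 0.06, adjusted p 2.24e-06). The first RELB call was lost without control replicate 1 (0.0631) or control replicate 3 (0.067).

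**Figure D4:**
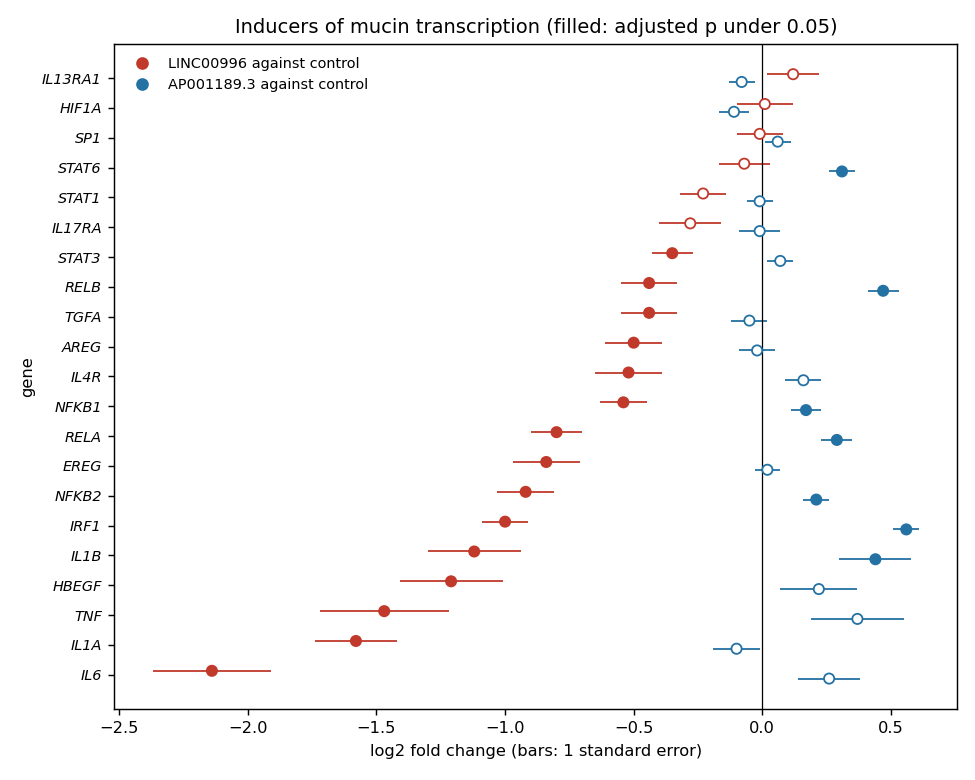
Log2 fold change of the 21 tested inducers of mucin transcription in LINC00996 against control and AP001189.3 against control, which share the control libraries, with bars of 1 SE and filled points for an adjusted p under 0.05. IL6 lay lowest at -2.14 in LINC00996 against control, and IRF1 was highest at 0.56 in AP001189.3 against control.

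Of 12 tested ligands, receptor partners and sheddases of mucins, 3 rose (LGALS3, LGALS1 and ADAM9) and 4 fell (EGFR, LGALS8, ADAM17 and ADAM10) in LINC00996 against control, beside 10.7% and 11.6% of all tested genes, with a median log2 fold change of -0.20. Without control replicate 2 or control replicate 3, 2 fell. The galectin LGALS3, which binds mucin sugars, had 71.4 ± 3.05 CPM (SD, n = 3) in control, 110.1 ± 11.1 in LINC00996 and 87.9 ± 6.86 in AP001189.3 libraries. It rose in both comparisons with control (0.62, SE 0.10, edgeR adjusted p 0.00120, and 0.30, SE 0.06, adjusted p 0.00129), as did LGALS1 (0.85, SE 0.14, adjusted p 0.00135, and 0.49, SE 0.08, adjusted p 7.76e-04). In 1 fit of all 9 libraries the calls in AP001189.3 against control were lost (0.0889 and 0.0514). EGFR, a partner of MUC1, had 745 ± 46.9, 533 ± 24.2 and 727 ± 36.7 CPM and fell in LINC00996 against control (-0.49, SE 0.09, adjusted p 0.00188). LGALS1 and LGALS3 were the genes of this list past the threshold in AP001189.3 against control, where 11.4% of all tested genes rose and the list median was 0.02. Of the mucin-like adhesion molecules CD164 and MCAM, tested in each comparison, MCAM fell in LINC00996 against AP001189.3, as did 12.1% of all tested genes, a call lost without AP001189.3 replicate 2.

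Genes were also ranked by how closely their log2 CPM followed MUC16 over the 9 libraries, among 9594 protein-coding genes whose mean level reached 10 CPM. The highest Pearson r was that of MYO1E, IGFBP1, UBR4, ERN1 and LIPH (0.99 each), and the lowest that of ALDH1A1 (-0.997), CAPN2, DKK1, TUBB and SLC25A3 (-0.99 each). These values are a description over 3 groups of 3 libraries, so they mostly restate the order of the groups, and the libraries share their depth and GC profile between genes. IGFBP1, for example, had mean levels of 629.6, 177 and 426 CPM in control, LINC00996 and AP001189.3 libraries, and ALDH1A1 had 2927, 5835 and 3653 CPM. With the group means removed, r was 0.74 for IGFBP1 and -0.87 for ALDH1A1. Among the named genes with a positive r it then ran from 0.47 (LIPH) to 0.83 (MYO1E and UBR4). Among those with a negative r it ran from -0.87 (ALDH1A1) to -0.67 (DKK1).

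Neighbours within 200 kb of the mucin genes were tested as well. Around MUC1, 27 of 37 genes were tested, and in LINC00996 against control EFNA1 (log2 fold change -0.78, SE 0.09, edgeR adjusted p 9.22e-05) and ASH1L (-0.35, SE 0.10, adjusted p 0.0278) fell and MTX1 (0.78, SE 0.16, adjusted p 0.00410) and FDPS (0.49, SE 0.13, adjusted p 0.0161) rose, beside 11.6% and 10.7% of all tested genes. The ASH1L call was lost without any 1 of the 3 control replicates or LINC00996 replicate 2 (up to 0.147), and the FDPS call without control replicate 2 (0.101) or control replicate 3 (0.0595). In AP001189.3 against control 7 of the 27 rose and 1 fell, beside 11.4% and 8.49% of all tested genes, ADAM15 with the smallest adjusted p (0.27, SE 0.06, 9.96e-04), which was 0.628 with a GC content offset. MUC1 thus had neighbours on both sides of 0. Around MUC13, HEG1 fell in LINC00996 against control (-0.52, SE 0.10, adjusted p 0.00355) and rose in AP001189.3 against control (0.32, SE 0.06, adjusted p 5.45e-04), the latter lost in 1 fit of all 9 libraries (0.0603). The other calls around MUC13, MUC4, MUC16 and MUC5AC in comparisons with control (ITGB5, TNK2, ZNF558 and AP2A2, all at a log2 fold change of 0.31 or less in size) were each lost without at least 1 library, and MUC2 is described above.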

How the data were processed

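The authors deposited read counts per gene, made with HISAT2 2.0.5 on GRCh38 and featureCounts 1.5.0-p3, and FPKM values that they derived from those counts and gene lengths. Both were used as deposited. Counts were filtered with filterByExpr, scaled by TMM and tested per pair of groups (6 libraries) with the robust quasi-likelihood fit of edgeR 4.0.16 in R 4.3.3, with Benjamini-Hochberg adjustment over all tested genes and a threshold of 0.05. Intervals are 95% t intervals. DESeq2 1.42.0 and limma 3.58.1 served the alternatives, which also covered scaling, filters, 1 fit of all 9 libraries, a gene length offset, a replicate block, FPKM values and leaving out each library. A GC content offset was added after the data were seen. The members and the gene lists were chosen with earlier results of these data known. Member genes got no test where LINC00996 libraries were used. In each list, up to 3 called genes with the smallest adjusted p in LINC00996 against control, and up to 2 in AP001189.3 against control, were named, and further genes were named after their values were seen. Figures were drawn with matplotlib 3.10.9.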

Additional observations from a re-analysis of the deposited data

How the results depend on the processing

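With 3 libraries per group, counts of genes past the threshold depended on the setting. In LINC00996 against control the count was 2297 and 2189 with log2(FPKM + 0.1) and log2(FPKM + 1), 6021 with the GC content offset and 1925 to 5481 when 1 library was left out. In AP001189.3 against control it was 437 with all 9 libraries in 1 fit, 1250 and 1207 with the FPKM settings and 1914 to 3598 with 1 library left out. In LINC00996 against AP001189.3 it was 2279, 2217, 5979 and 1840 to 6828 in the same order as in the first comparison. MUC16 in LINC00996 against control was -2.48 with the gene length offset and -2.53 and -1.69 with the FPKM settings. MUC16 in AP001189.3 against control passed with DESeq2 (-0.81), library size alone (-0.83), all 9 libraries in 1 fit (-0.80), the replicate block (-0.82) and FPKM (-0.80 and -0.63), and ranged from -1.01 to -0.68 with 1 library left out. It missed the threshold with the gene length offset (-0.64, edgeR adjusted p 0.0840) and the GC content offset (-0.83). The same held without a filter on low counts (-0.80) and with at least 10 counts in every library (-0.80). With 1 library left out, MUC4 ranged from -0.70 to 0.48 in LINC00996 against control and from 0.65 to 1.84 in AP001189.3 against control, and MUC5AC from -0.21 to -0.01 in the latter, where it was -0.26 with the GC content offset and 0.01 with the gene length offset. In LINC00996 against AP001189.3, MUC1 was -1.08 with the GC content offset and MUC16 -1.06 with log2(FPKM + 1). MUC4 got no value with at least 10 counts in every library or with FPKM, and no adjusted p from DESeq2 in AP001189.3 against control. Of 2160 values for 136 results on single genes of the lists and loci, 1907 stayed on their side of the threshold, where values that did not pass may have changed sign, 194 lost a call and 59 gained one. Deviations from the group mean correlated at r of -0.01 to 0.20 between libraries of the same replicate number, and libraries correlated best with their own number in 4 of 6 cases in LINC00996 against control, 3 of 6 in AP001189.3 against control and 6 of 6 in LINC00996 against AP001189.3. No pairs were used, as the labels give none, and a replicate block gave 4500, 3466 and 3772 genes past the threshold. The cause of these differences was not tested.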
